A study of Rattus norvegicus with 14 samples.

Results

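Retinoic acid is made from vitamin A, broken down, bound in the cytosol and read by nuclear receptors, and 9 rat genes of these steps were measured in fetal testes after exposure of the mother to dicyclohexyl phthalate (DCHP), a plasticizer. They were Rdh10, Aldh1a1 and Aldh1a2 for synthesis, Cyp26b1 for breakdown, Crabp1 and Crabp2 for binding, and Rara, Rarb and Rarg for the receptors. The genes were taken by name from a count table of 18174 genes, in which all 9 of 9 were found, and all 9 passed the filter on low counts that left 12719 genes to test. RNA was read with TempO-Seq, in which pairs of probes are joined on the transcript and the products are sequenced, so that each gene has 1 level per library that depends on its probes, and levels are compared between libraries and not between genes.

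Harlan Sprague Dawley dams were given corn oil, or DCHP in corn oil, by mouth from gestational day 14 to day 18, and the fetal testes of a litter were pooled on gestational day 18. The corn oil vehicle had 3 litters, 100, 300 and 600 mg/kg/day had 3 litters each, and 900 mg/kg/day had 2 litters, so 1 library is 1 litter and the litter is the replicate. No other treatment or genetic change is given for any group. The whole testis was used, and a lower level can therefore come from fewer cells of a type or from less RNA per cell, which cannot be told apart here.

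Rdh10 turns retinol into retinal, and the ALDH1A enzymes turn retinal into retinoic acid. CYP26 enzymes oxidize retinoic acid for removal, while the cellular retinoic acid binding proteins hold it in the cytosol, and CRABP2 hands it to the receptors in the nucleus. The receptors pair with retinoid X receptors on DNA repeats called retinoic acid response elements. In the fetal testis of the mouse, Cyp26b1 keeps retinoic acid away from germ cells and so holds them out of meiosis.

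The promoter windows of 2 of these genes are shown here, Crabp2 because it is the gene whose level followed dose, and Rarb because its window holds a direct repeat of the kind found in retinoic acid response elements. Both are from RefSeq on build GRCr8 and run 5′ to 3′ from 250 bases before the start site to 50 bases after it, at chr2:175714612-175714911 on the plus strand for Crabp2 and chr15:11336142-11336441 on the plus strand for Rarb. Capitals mark the GGGCGG boxes and the TATAAA box in Crabp2, and the direct repeat with its spacer in Rarb.
Crabp2: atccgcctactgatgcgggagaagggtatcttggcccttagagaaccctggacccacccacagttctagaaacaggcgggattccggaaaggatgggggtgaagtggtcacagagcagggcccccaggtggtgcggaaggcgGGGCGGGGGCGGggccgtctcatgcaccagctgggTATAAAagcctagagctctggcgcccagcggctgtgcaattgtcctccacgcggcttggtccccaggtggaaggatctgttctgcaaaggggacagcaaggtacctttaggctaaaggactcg
Rarb: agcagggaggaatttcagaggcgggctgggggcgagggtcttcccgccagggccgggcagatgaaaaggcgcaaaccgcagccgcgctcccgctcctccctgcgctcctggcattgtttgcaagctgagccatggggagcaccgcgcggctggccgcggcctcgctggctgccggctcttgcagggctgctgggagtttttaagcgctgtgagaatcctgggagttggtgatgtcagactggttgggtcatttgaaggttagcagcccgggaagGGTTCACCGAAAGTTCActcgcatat
RefSeq gave windows for 8 of the 9 genes, 9 windows in all, and Rdh10 had none. The windows were searched on both strands for 2 copies of AGGTCA, or of its variants AGTTCA, then GGGTCA, then GGTTCA, in any mix, in the same direction with 5, 2 or 1 bases between them. With 5 bases between the copies, 1 of the 9 windows matched, that of Rarb, whose repeat reads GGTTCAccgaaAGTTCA at bases 275 to 291 of the window, and 0.382% of 33469 rat promoters of this length held such a repeat. The repeats with 2 and 1 bases were in none of the 9 windows, and in 0.170% and 0.233% of all promoters. TATAAA was found in Crabp2 alone among the 9 windows and in 4760 of all 33469 promoters, and GGGCGG in 5 of the 9 and in 33.1%. A match says only that the letters are there.

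The libraries held 5558873 to 11272861 counts. Markers of the testis were present in every litter, with summed levels of 444 to 594 CPM, counts scaled to the size of the library, for 6 Sertoli cell genes and 881 to 1176 CPM for 7 germ cell genes. 4 libraries stood apart from the others on the first principal component of all tested genes, which held 36.1% of the variance. They were litter 1 of 100 mg/kg/day at a score of -65.1, litter 1 of the vehicle at -42.6, and both litters of 900 mg/kg/day at -38.2 and -22.8, while the other 10 litters lay between -1.84 and 35.6. The axis thus crosses the dose groups, and genes that follow it have their fold change at 900 mg/kg/day given with and without the vehicle and 100 mg/kg/day litters in question.

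Crabp2, the binding protein that delivers retinoic acid to its receptors, fell with dose, and it was the only one of the 9 genes that passed a test with all 14 litters. The gene, ENSRNOG00000022101, lies on the plus strand of chromosome 2 at 173416857 to 173421380 on rn7. Its level was 720, 764 and 760 CPM in the vehicle litters, 576, 685 and 598 CPM at 100 mg/kg/day, 464, 496 and 567 CPM at 300 mg/kg/day, 523, 475 and 424 CPM at 600 mg/kg/day, and 397 and 437 CPM at 900 mg/kg/day. All 11 exposed litters were below all 3 vehicle litters, which held for 0.511% of tested genes. At single doses, litters lay wholly below the vehicle for 2.99%, 4.47%, 5.91% and 8.84% of tested genes at 100, 300, 600 and 900 mg/kg/day.

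Group means of Crabp2 were 748 ± 24.2 CPM in the vehicle, 620 ± 57.9 CPM at 100 mg/kg/day, 509 ± 53.0 CPM at 300 mg/kg/day and 474 ± 49.6 CPM at 600 mg/kg/day (SD, n = 3 each), with 417 ± 28.2 CPM at 900 mg/kg/day (SD, n = 2). These were 82.9%, 68.1%, 63.4% and 55.8% of the vehicle mean at 100, 300, 600 and 900 mg/kg/day. All litters of 300 mg/kg/day were below all litters of 100 mg/kg/day, as in 3.36% of tested genes. The ranges of 300 and 600 mg/kg/day overlapped, and so did those of 600 and 900 mg/kg/day. The counts behind these values were 2292 to 7674 per library, the most reads of any of the 9 genes in 1 library.

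**Figure D1:**
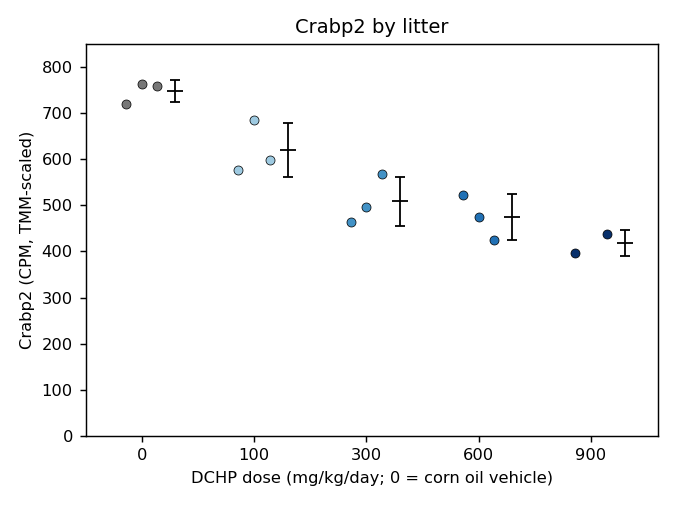
Crabp2 level in CPM (vertical axis, from 0) by DCHP dose in mg/kg/day (horizontal axis, 0 is corn oil vehicle). Points are litters, and bars are the group mean and SD. The vehicle litters lie between 720 and 764 CPM, above every exposed litter, and the 900 mg/kg/day litters are at 397 and 437 CPM.

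In edgeR's quasi-likelihood test the log2 slope of Crabp2 was -0.087 ± 0.013 per 100 mg/kg/day (SE, 95% interval -0.115 to -0.059, adjusted p = 0.00482). Of tested genes 0.425% passed in this trend, 0.33% by falling, against 1 of the 9 retinoic acid genes. At 900 mg/kg/day the log2 fold change over vehicle was -0.84 ± 0.13 (SE, adjusted p = 0.0127, edgeR), where 0.252% of tested genes passed and 0.204% fell. At 600 mg/kg/day it was -0.66 ± 0.11 (SE, adjusted p = 0.0357, edgeR), where 0.22% passed and 0.189% fell.

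At the lower doses Crabp2 did not pass. The log2 fold change was -0.56 ± 0.11 at 300 mg/kg/day (SE, unadjusted p = 0.000229, adjusted p = 0.153, edgeR) and 0.0472% of tested genes passed there. It was -0.27 ± 0.11 at 100 mg/kg/day (SE, unadjusted p = 0.0287, edgeR), where 0 genes passed. The test across all 5 groups gave an adjusted p of 0.0360 (edgeR), and 0.157% of tested genes passed it. No step between neighbouring doses passed by edgeR, with log2 differences of -0.28 ± 0.11 for 300 over 100, -0.10 ± 0.11 for 600 over 300 and -0.18 ± 0.12 for 900 over 600 mg/kg/day (SE), and 0% of tested genes passed in each.

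How firm these calls are differs between comparisons. The trend held when any 1 of the 14 litters was left out, with slopes of -0.096 to -0.082 and adjusted p of 0.00255 to 0.0314. The call at 900 mg/kg/day was lost without litter 3 of the vehicle (adjusted p = 0.0636), and without either litter of 900 mg/kg/day (0.454 without litter 1, 0.124 without litter 2), while the fold change stayed between -0.91 and -0.76. With 1 litter left at 900 mg/kg/day, the test assumes that it varies like the litters of the other groups. The call at 600 mg/kg/day held only without litter 1 or 2 of 100 mg/kg/day or litter 3 of 300 mg/kg/day, and was lost without each of the other 11 litters, with adjusted p up to 0.280. The call across all groups held without litter 1 or 2 of 100 mg/kg/day, and was lost without each of the other 12 litters, with adjusted p up to 0.202. Without litter 1 of the vehicle and litter 1 of 100 mg/kg/day together, the fold change at 300 mg/kg/day was -0.58 with an adjusted p of 0.0262 by edgeR, and 0.309% of tested genes then passed there.

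Crabp1, the other binding protein, thought to take retinoic acid towards breakdown, lies on the plus strand of chromosome 8 at 55151285 to 55159361. Its level was 11.02, 29.9 and 15.9 CPM in the vehicle litters, 15.3, 25.0 and 20.4 CPM at 100 mg/kg/day, 23.7, 16.0 and 18.9 CPM at 300 mg/kg/day, 18.4, 16.8 and 17.6 CPM at 600 mg/kg/day, and 11.3 and 14.8 CPM at 900 mg/kg/day. The litters of 900 mg/kg/day were within the vehicle's range, which was the widest of its groups. The log2 fold change at 900 mg/kg/day over vehicle was -0.53 ± 0.35 (SE, 95% interval -1.29 to 0.22, adjusted p = 0.852, edgeR), so a fall as large as that of Crabp2 lies within the interval. With litter 1 of the vehicle and litter 1 of 100 mg/kg/day left out it was -0.83 with an adjusted p of 0.0428, in a fit where 16.7% of tested genes passed at that dose.

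Of the synthesis genes, Rdh10, on the minus strand of chromosome 5 at 3188445 to 3215573, was the steadiest of the 9. It lay between 78.6 and 99.3 CPM over all 14 litters, with a coefficient of variation of 6.58%. Its mean was 90.9 ± 10.4 CPM at 900 mg/kg/day (SD, n = 2) and 86.1 ± 3.52 CPM in the vehicle (SD, n = 3). The log2 fold change was 0.08 ± 0.12 (SE), with a 95% interval of -0.18 to 0.34, which leaves out a fall of the size seen in Crabp2.

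Aldh1a1, on the plus strand of chromosome 1 at 218042127 to 218152962, varied more than 2-fold between litters of the same treatment. At 600 mg/kg/day alone its litters had 437, 356 and 771 CPM, which spans the lowest and the highest value of the series. The mean was 597 ± 47.0 CPM at 900 mg/kg/day (SD, n = 2) and 552 ± 84.2 CPM in the vehicle (SD, n = 3). This gave a log2 fold change of 0.11 ± 0.30 (SE, 95% interval -0.54 to 0.77).

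Aldh1a2, on the plus strand of chromosome 8 at 71877850 to 71957108, makes most of the embryo's retinoic acid in mice. It had 251.5, 353 and 371 CPM in the vehicle litters, 165, 409 and 406 CPM at 100 mg/kg/day, 382, 329 and 325 CPM at 300 mg/kg/day, 349, 400 and 291 CPM at 600 mg/kg/day, and 241 and 252 CPM at 900 mg/kg/day. The low litters were the 4 that stand apart on the first principal component, at 165 to 252 CPM against 291 to 409 CPM in the other 10. Of all tested genes 23.5% were wholly below or wholly above the other 10 in these 4. At 900 mg/kg/day over vehicle the log2 fold change was -0.40 ± 0.30 (SE, adjusted p = 0.852, edgeR). Without litter 1 of the vehicle and litter 1 of 100 mg/kg/day it was -0.59 with an adjusted p of 0.00743, beside the same 16.7% of tested genes.

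Cyp26b1, the enzyme of retinoic acid breakdown among the 9, lies on the minus strand of chromosome 4 at 117041808 to 117058629. It lay between 16.9 and 27.5 CPM over all litters, and both of these extremes were at 100 mg/kg/day. Its mean was 23.4 ± 2.90 CPM at 900 mg/kg/day (SD, n = 2) and 22.4 ± 1.65 CPM in the vehicle (SD, n = 3). Between them the log2 fold change was 0.06 ± 0.20 (SE, 95% interval -0.36 to 0.49), and the log2 slope over all doses was 0.007 ± 0.017 per 100 mg/kg/day (SE).

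Rara, the receptor alpha gene, lies on the plus strand of chromosome 10 at 83893384 to 83928143. It had 44.3, 22.9 and 31.0 CPM in the vehicle litters, 44.2, 20.3 and 21.6 CPM at 100 mg/kg/day, 24.7, 25.7 and 25.5 CPM at 300 mg/kg/day, 28.4, 30.8 and 20.9 CPM at 600 mg/kg/day, and 39.3 and 37.5 CPM at 900 mg/kg/day. The high litters were again the 4 that stand apart, at 37.5 to 44.3 CPM against 20.3 to 31.0 CPM in the other 10. At 900 mg/kg/day over vehicle Rara's log2 fold change was 0.23 ± 0.32 (SE, 95% interval -0.46 to 0.92). Leaving out litter 1 of the vehicle and litter 1 of 100 mg/kg/day made it 0.48 (adjusted p = 0.0743, edgeR).

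Rarg, the receptor gamma gene, on the minus strand of chromosome 7 at 133367833 to 133390178, had 7.21 to 14.6 CPM. In the same 4 litters it lay at 11.16 to 14.6 CPM, against 7.21 to 11.1 CPM in the other 10. At 900 mg/kg/day over vehicle its log2 fold change was 0.10 ± 0.27 (SE, 95% interval -0.48 to 0.67), and 0.36 with the same pair of litters left out (adjusted p = 0.306, edgeR). Rarb, the receptor beta gene and itself a target of retinoic acid, on the plus strand of chromosome 15 at 8406492 to 9051289, had only 18 to 62 counts per library. Its mean was 5.07 ± 0.358 CPM at 900 mg/kg/day (SD, n = 2) and 4.88 ± 1.28 CPM in the vehicle (SD, n = 3). The log2 fold change of 0.06 ± 0.35 (SE) had a 95% interval of -0.68 to 0.81.

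**Figure D2:**
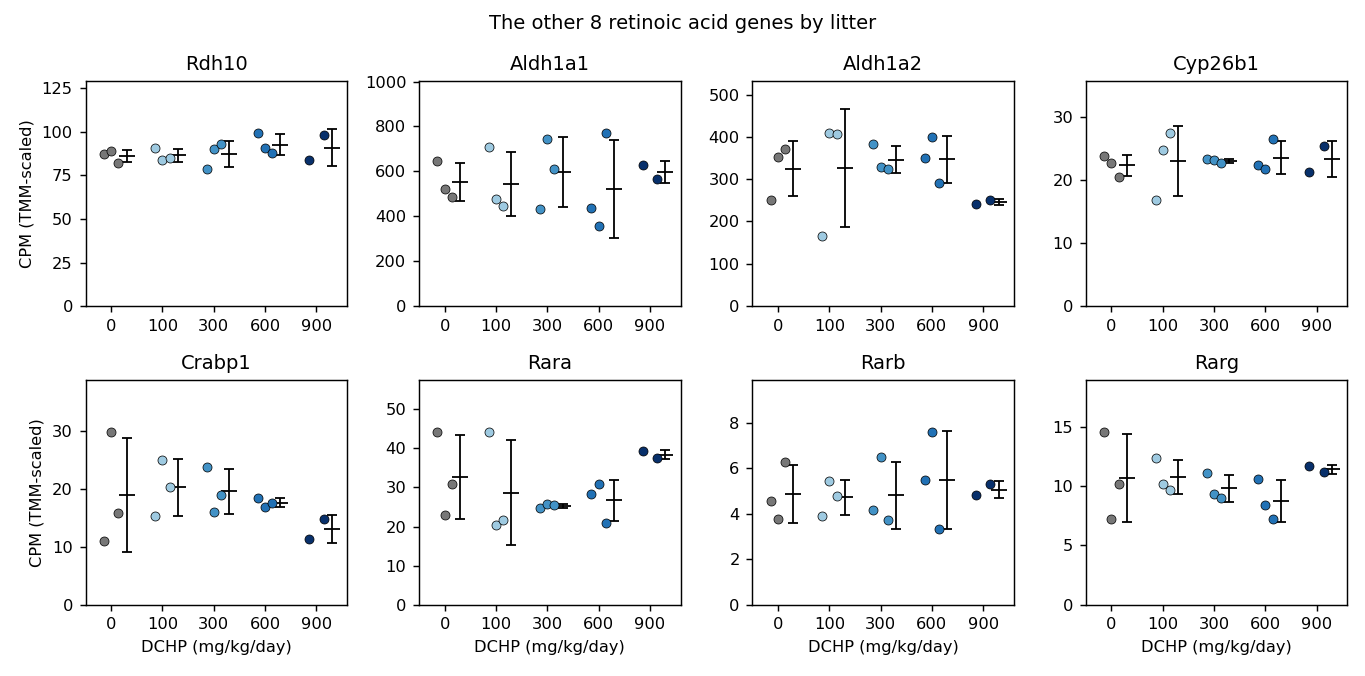
Levels of Rdh10, Aldh1a1, Aldh1a2, Cyp26b1, Crabp1, Rara, Rarb and Rarg in CPM (vertical axes, from 0, with a scale for each gene) by DCHP dose in mg/kg/day, where 0 is corn oil vehicle. Points are litters, and bars are the group mean and SD. Rdh10 and Cyp26b1 are level across doses, while Aldh1a2, Crabp1 and Rara have some vehicle and 100 mg/kg/day litters near the 900 mg/kg/day litters.

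None of these 8 genes passed at any dose or over dose by edgeR, and none of the 8 had an unadjusted p under 0.05. The smallest adjusted p among them was 0.852, at 900 mg/kg/day. Over all 9 genes the median log2 fold change at 900 mg/kg/day was 0.06, beside 0.02 over all tested genes, and the median slope was 0.005, beside 6.4e-05.

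**Figure D3:**
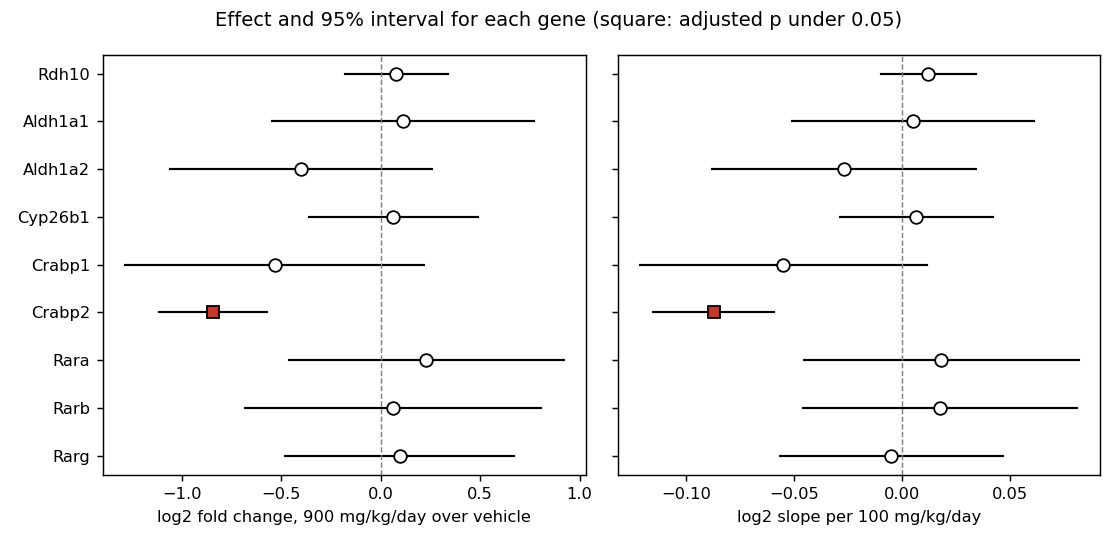
Log2 fold change at 900 mg/kg/day over vehicle (left) and log2 slope per 100 mg/kg/day (right) for the 9 genes, with 95% intervals from edgeR's fit. The filled square marks Crabp2, at -0.84 and -0.087, and the open circles mark genes whose intervals include 0.

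Over the 14 litters the log2 ratio of Crabp2 to each of the other 8 genes had a slope below 0, from -0.11 per 100 mg/kg/day against Rara to -0.042 against Crabp1. The slope was -0.099 against Rdh10, -0.095 against Cyp26b1 and -0.065 against Aldh1a2. Crabp2 was set against the others because it fell, so these slopes are a description and no test of a difference is given.

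**Figure D4:**
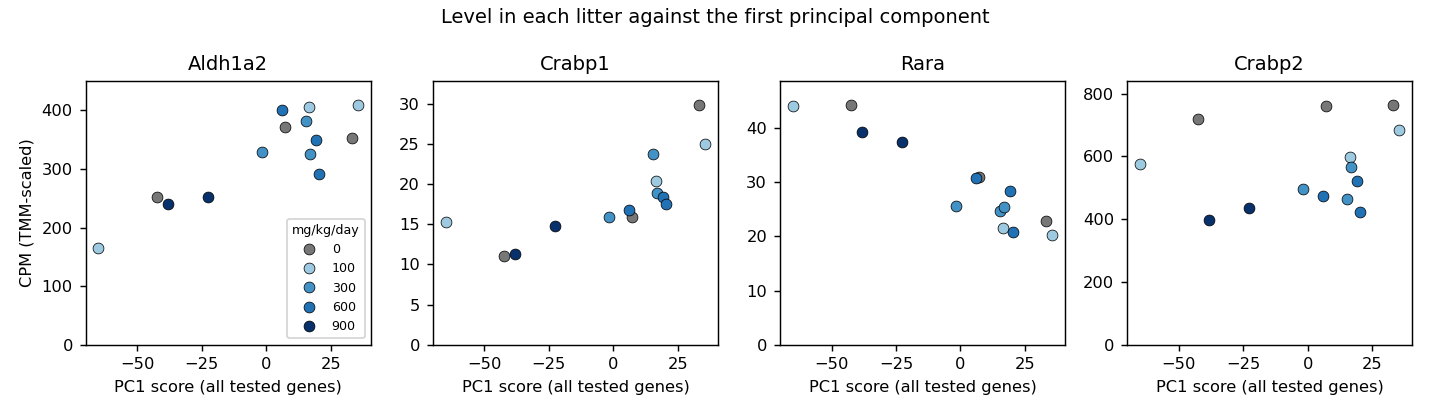
Levels of Aldh1a2, Crabp1, Rara and Crabp2 in CPM (vertical axes, from 0) against the litter's score on the first principal component of all tested genes (horizontal axes, no unit), coloured by dose in mg/kg/day. In the 4 litters with the lowest scores Aldh1a2 and Crabp1 are low and Rara is high whatever the dose, whereas Crabp2 spans 397 to 720 CPM in those 4 and 424 to 764 CPM in the other 10.

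Crabp1 followed the same split as Aldh1a2, Rara and Rarg, with 11.02 to 15.3 CPM in the 4 litters and 15.9 to 29.9 CPM in the other 10. A split of this kind was thus seen in 4 of the 9 genes, beside 23.5% of all tested genes. Because both 900 mg/kg/day litters are among the 4, the values of these genes at that dose move together with the axis, whose part in them was not tested. Without litter 1 of the vehicle and litter 1 of 100 mg/kg/day, edgeR's trend passed for Aldh1a2 at -0.062 per 100 mg/kg/day (adjusted p = 0.0258), for Crabp1 at -0.088 (adjusted p = 0.0297) and for Rara at 0.063 (adjusted p = 0.0435). In that fit 11.8% of tested genes passed the trend, and 10.1% passed across all groups. Crabp2 kept its slope there, with an adjusted p of 0.00114.

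Beyond the 9, 49 other genes of retinoid uptake, conversion, breakdown, receptor partners and response were listed, of which 38 were in the table and 27 could be tested. In each of the comparisons with vehicle and in the trend, 0 rose and 0 fell by edgeR. At an unadjusted p under 0.05 there were 1, 0, 1 and 2 of the 27 in the order of dose, and the trend had 2. Over all tested genes the share under that threshold was 3.4%, 3.65%, 4.79% and 4.99% in the order of dose, and 5.09% in the trend. Rbp4 was the gene at 100 mg/kg/day, with a log2 fold change of 0.97 (unadjusted p = 0.00675, edgeR). Its litters there were uneven, at 14.1 ± 7.26 CPM, beside 7.20 ± 0.600 CPM in the vehicle (SD, n = 3 each). Its means were 7.75, 7.55 and 6.58 CPM at 300, 600 and 900 mg/kg/day. Aldh1a3 was the gene at 600 mg/kg/day. Those at 900 mg/kg/day were Stra6 and Rarres1, the latter at -1.51 (unadjusted p = 0.0392, edgeR) with 6 to 42 counts per library. Aldh1a3 and Stra6 were the genes of the trend. The median log2 fold change of the 27 at 900 mg/kg/day was -0.07, beside 0.02 over all tested genes. By list it was -0.40 for 8 retinoid-responsive genes, -0.30 for 7 of conversion and -0.13 for 5 of uptake. It was 0.02 for 9 receptor partners and cofactors, and 0.27 for the 1 tested gene of breakdown. Some genes were on 2 lists, and whether a list differed from all tested genes was not tested. Both litters of 900 mg/kg/day stand apart on the first principal component, whose part in these medians was not tested either.

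The smallest p of the 27 in the trend belonged to Aldh1a3, a further retinal dehydrogenase, with 1.38 ± 0.594 CPM at 900 mg/kg/day (SD, n = 2) and 2.94 ± 1.64 CPM in the vehicle (SD, n = 3). Aldh1a3 had only 5 to 46 counts per library, and its slope was -0.12 ± 0.050 per 100 mg/kg/day (SE, adjusted p = 0.837, edgeR). Stra6, the cell surface receptor that takes up retinol, had 14.1 ± 1.61 CPM at 900 mg/kg/day (SD, n = 2) and 23.1 ± 7.15 CPM in the vehicle (SD, n = 3), with a slope of -0.060 ± 0.028 (SE, adjusted p = 0.978, edgeR). Dhrs3, which turns retinal back into retinol and is induced by retinoic acid, had 17.4 ± 2.67 CPM at 900 mg/kg/day (SD, n = 2) and 24.9 ± 6.33 CPM in the vehicle (SD, n = 3), and did not pass either. The corepressor Ncor1, which retinoic acid receptors hold when no ligand is bound, had 52.9 ± 0.195 CPM at 900 mg/kg/day and 50.4 ± 4.11 CPM in the vehicle. Cyp2s1, a cytochrome P450 that can oxidize retinoic acid, had 23.6 ± 5.25 CPM at 900 mg/kg/day and 19.6 ± 0.169 CPM in the vehicle. Stra8, the retinoic acid target that marks entry into meiosis, had 0 to 13 counts per library and was too low to test; it is named here after its values were seen.

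The genes whose pattern was most like that of Crabp2 over the 14 litters were Fdft1, Pcyt2 and Sqle, among 10094 genes with a mean count of at least 20. Likeness was the root mean square difference of centred log2 CPM, at 0.089 for Fdft1, 0.096 for Pcyt2 and 0.11 for Sqle, where Crabp2's own deviation from its mean was 0.31. Fdft1, squalene synthase, had 124 ± 7.72 CPM at 900 mg/kg/day (SD, n = 2) and 210 ± 9.56 CPM in the vehicle (SD, n = 3). Sqle, squalene epoxidase, had 115 ± 13.7 CPM at 900 mg/kg/day and 238 ± 14.4 CPM in the vehicle. Both are enzymes of cholesterol synthesis. Pcyt2, of phosphatidylethanolamine synthesis, had 83.9 ± 4.30 CPM at 900 mg/kg/day and 138 ± 5.68 CPM in the vehicle. They were chosen for their likeness, so that their fall is a description.

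Markers of fetal Leydig cells, which make testosterone, moved with dose as well. The 6 markers Star, Cyp11a1, Cyp17a1, Hsd3b1, Insl3 and Lhcgr summed to 3543 to 7691 CPM in the vehicle litters, 2160 to 4225 CPM at 100 mg/kg/day, 2213 to 3130 CPM at 300 mg/kg/day, 1342 to 3212 CPM at 600 mg/kg/day and 979 to 1220 CPM at 900 mg/kg/day, with none at 0. Insl3 alone had 2275 to 5869 CPM in the vehicle litters and 775 to 915 CPM at 900 mg/kg/day. In the trend 5 of the 6 passed by falling in edgeR, all but Lhcgr, beside 0.33% of tested genes. Hsd3b1 (adjusted p = 0.0433, edgeR) and Insl3 (adjusted p = 0.0466, edgeR) were near the threshold. Counts were low for Hsd3b1, at 10.1 to 46.6 per library, and for Lhcgr, at 8 to 43. At 900 mg/kg/day 3 of the 6 passed by falling in edgeR, Star, Cyp11a1 and Cyp17a1, beside 0.204% of tested genes. Cyp17a1 was there at 7.48% of the vehicle mean, Star at 16.7%, Cyp11a1 at 21.2% and Insl3 at 21.9%. Lhcgr was at 32.4%, Hsd3b1 at 37.4% and Crabp2 at 55.8%. The part of the Leydig cell RNA in the fall of Crabp2 was not tested.

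**Figure D5:**
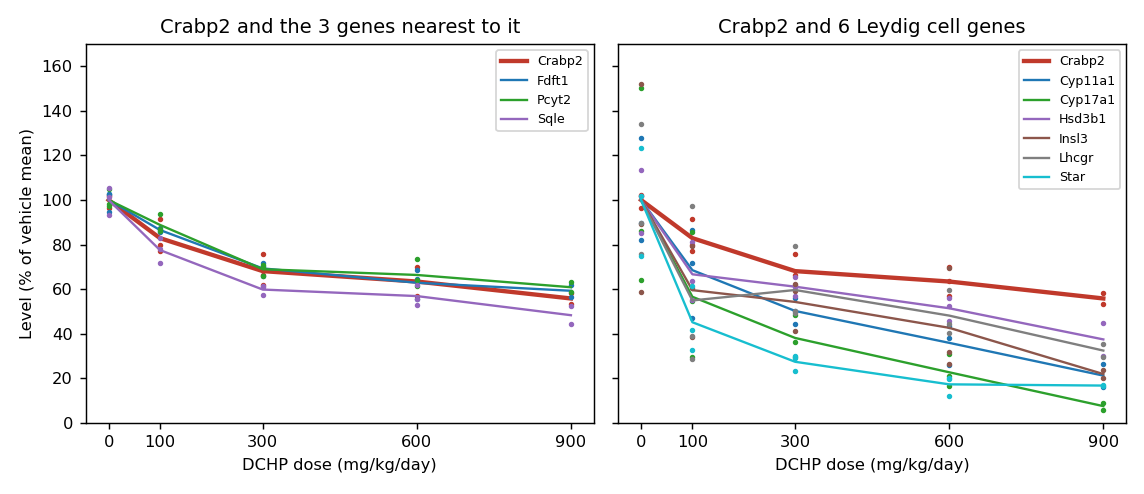
Level as a percent of the vehicle mean (vertical axes, from 0) by DCHP dose in mg/kg/day (horizontal axes, 0 is corn oil vehicle) for Crabp2 with Fdft1, Pcyt2 and Sqle (left) and with 6 Leydig cell markers (right). Lines join group means and points are litters. Crabp2 is at 55.8% at 900 mg/kg/day, with the left-hand genes near it and the Leydig cell markers below it.

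Markers of the other cell types reported here, Sertoli and germ cells included, did not pass at any dose or in the trend by edgeR. In all litters 5 macrophage markers summed to 12.3 to 24.5 CPM, and 4 of 5 endothelial markers in the table to 267 to 312 CPM. The 6 interstitial markers summed to 726 to 832 CPM in the vehicle and 976 to 989 CPM at 900 mg/kg/day. They summed to 652 to 896 CPM at 100, 693 to 768 CPM at 300 and 730 to 764 CPM at 600 mg/kg/day. The 5 peritubular markers summed to 277 to 312 CPM in the vehicle and 312 to 426 CPM at 900 mg/kg/day. At 100, 300 and 600 mg/kg/day they summed to 247 to 349, 326 to 374 and 338 to 413 CPM. Of 6 mesothelial markers 4 were in the table and summed to 223 to 371 CPM in all litters. Most of this was Wt1, with vehicle means of 318 CPM for Wt1, 11.4 CPM for Upk3b and 3.51 CPM for Msln. Of 5 erythroid markers only Slc4a1 was in the table.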

How the data were processed

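Testes of 14 litters were profiled by TempO-Seq. The estimated counts per Ensembl gene were made from the reads by the authors and are used as deposited, with 83.6% of values whole to a tolerance of 1e-09; all were rounded before testing. Per the submitters' processing notes, STAR 2.7.8a, Partek, DESeq2 and the build rn7 were used, without their roles; the counting tool is not given in the sources used here. Another deposited table multiplies 16 genes to undo attenuation, and none of the 9 is among them. Gene positions are as the table gives them on rn7; whether starts count from 0 or 1 is not stated.

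In edgeR 4.0.16 (R 4.3.3), filterByExpr on dose group kept 12719 genes and 99.9% of counts, libraries were scaled by TMM, and a robust quasi-likelihood model was fitted to all 14 libraries (9 residual degrees of freedom, common biological coefficient of variation 0.232). Each dose was set against vehicle, and the slope over dose came from a fit of its own; neighbouring doses were compared as an addition made after seeing the data. p-values were two-sided and Benjamini-Hochberg adjusted over all tested genes, with a threshold of 0.05. CPM use TMM-scaled totals, and ratios and likeness use log2 CPM with a prior count of 2. The script was tested on simulated data. Alternatives were DESeq2 1.42.0, other scalings, no filter, adjusted counts, dose as rank, the 2 groups alone, and leaving out litters. Litter numbers follow label order.

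Named genes are the 9, any gene of the pathway lists that passed, up to 3 per list with the smallest trend p, and the 3 genes most like each of the 2 members with the smallest trend p. The 9 genes and all lists were chosen with earlier results of these data known. The result of 1 marker list is not reported here.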

Additional observations from a re-analysis of the deposited data

How the results depend on the processing

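The trend of Crabp2 passed under 6 other settings, with slopes of -0.091 to -0.083 per 100 mg/kg/day, with dose as rank, at -0.21 per rank of dose, and without each litter, at -0.096 to -0.082 per 100 mg/kg/day. The number of the 9 genes called, 0, 0, 1 and 1 at 100, 300, 600 and 900 mg/kg/day, 1 in the trend and 1 across all groups, changed as follows. At 300 mg/kg/day it was 1 with DESeq2 (Crabp2, adjusted p = 0.0184). With DESeq2's size factors in edgeR it was 0 at 600 mg/kg/day (Crabp2, adjusted p = 0.0685) and 0 across all groups (adjusted p = 0.0671). With only the vehicle and that dose fitted it was 0 at 600 mg/kg/day (adjusted p = 0.182) and 0 at 900 mg/kg/day (adjusted p = 0.233), a fit on fewer samples. Without litter 1 of the vehicle and litter 1 of 100 mg/kg/day together it was 1 at 300 mg/kg/day, 3 at 900 mg/kg/day, 4 in the trend and 3 across all groups. Elsewhere the cause was not tested. Leaving out each litter in turn gave 0 to 1 at 600 and 900 mg/kg/day and across all groups, 1 in the trend, and 0 at 100 and 300 mg/kg/day. For the other 8 genes, 5 of 840 alternative values at single doses and in the trend passed, all without those 2 litters, and 71 changed sign. The test across all groups is not among the 840. Without those 2 litters Aldh1a2 (adjusted p = 0.0110, edgeR) and Rara (adjusted p = 0.0438, edgeR) passed it, beside 10.1% of tested genes. Over all genes, leaving out a litter gave 0 to 9 calls at 300, 6 to 50 at 600, 0 to 50 at 900 mg/kg/day, 8 to 45 across all groups and 30 to 76 in the trend, and the other settings gave 0 to 2 at 100, 4 to 39 at 300, 8 to 66 at 600, 4 to 2102 at 900 mg/kg/day, 18 to 1276 across all groups and 49 to 1494 in the trend. No paired analysis was possible because litters carry no shared numbers in the labels. With 2 or 3 litters a group the intervals are wide, and Rarb had only 18 to 62 counts per library.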

Other observations

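Crabp1 had the second smallest trend p of the 9 genes, and the genes most like it over the 14 litters were Med19, Smo and Tbp. Their root mean square difference of centred log2 CPM from Crabp1 was 0.14, 0.15 and 0.15, where Crabp1's own deviation from its mean was 0.38, and none passed in the trend by edgeR. Smo transmits the hedgehog signal, Tbp binds the TATA box and Med19 is a subunit of Mediator. The values are given as a description.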
